A study of Mus musculus with 9 samples.

Results

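The progesterone–Indian hedgehog–COUP-TFII axis was followed here through 9 genes, taken from the expression table by symbol: *Ihh*, *Ptch1*, *Smo*, *Gli1*, *Gli2*, *Nr2f2*, *Hand2*, *Gata2* and *Il13ra2*. All 9 had an entry in a table of 31274 entries, and all 9 were among the 14728 genes whose mean FPKM (fragments mapped to a transcript, scaled for its length and for the number of mapped fragments) exceeded 1 in at least 1 genotype. In progesterone signaling of the uterus, the epithelium makes the secreted ligand Indian hedgehog, which binds the receptor PTCH1 on neighboring stromal cells and frees SMO to activate the GLI transcription factors. The stroma then expresses the orphan nuclear receptor COUP-TFII, encoded by *Nr2f2*, and the helix-loop-helix factor HAND2, which holds back fibroblast growth factor signaling to the epithelium before implantation. *Ptch1* and *Gli1* are themselves transcribed in response to hedgehog signal, so their RNA serves as a readout of it.

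RNA came from whole uteri of C57BL/6 mice on day 4.5 of pseudopregnancy, induced by mating with vasectomized males so that no embryo was present. The 4 control libraries were from *Wnk1f/f* mice, in which exon 2 of the kinase gene *Wnk1* was flanked by loxP sites and no Cre was carried. The 5 *Wnk1d/d* libraries were from mice with the same floxed alleles and 1 *PGR-Cre* allele, so exon 2 was removed where the progesterone receptor locus is or was active. That locus is active in uterine epithelium, stroma and muscle and also in ovary and pituitary, whereas immune and endothelial cells keep *Wnk1*. The *PGR-Cre* allele itself was carried by every *Wnk1d/d* mouse and by no control, so its presence and the loss of *Wnk1* cannot be told apart. Each library was a separate mouse, and the labels give no age, litter or date.

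*Wnk1* lay between 43.4 and 47.3 FPKM in the *Wnk1f/f* libraries and between 29.9 and 33.9 FPKM in the *Wnk1d/d* libraries (log2 fold change −0.52, SE 0.06, limma adjusted p = 0.001668). The FPKM covers the whole transcript, including exons outside the deleted one. Median log2(FPKM + 1) over tested genes lay between 3.79 and 3.82 in all 9 libraries. A single entry took 70.3% of the summed FPKM of *Wnk1d/d* replicate 4. *Wnk1f/f* replicate 4 carried 77.7 FPKM of the liver gene *Alb*, against at most 1.5 in the other 8 libraries. The uterine transcripts *Pgr*, *Hoxa10* and *Hoxa11* were present in every library, at no less than 12.7, 140.2 and 126.9 FPKM. Marker RNA of several cell types differed between the genotypes. All 6 smooth muscle markers examined were higher in *Wnk1d/d* (summed FPKM 2797 to 6372 in controls and 7210 to 13650 in *Wnk1d/d*), and 6 of 7 blood endothelium markers were lower (383.7 to 424.3 against 152.4 to 314.5). Of 5 leukocyte markers tested *Itgax* alone was lower, with sums of 33.8 to 73.96 and 27.2 to 50.95. Their part in the values of the axis genes was not tested. In whole-uterus RNA, fewer cells of a type and less RNA per cell cannot be told apart.

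Of the 9 axis genes, 5 were lower in *Wnk1d/d* at a limma adjusted p under 0.05 (*Ptch1*, *Gli1*, *Nr2f2*, *Hand2* and *Il13ra2*) and 0 were higher. Over all tested genes 11% were called lower and 11.1% higher by the same rule, 22.1% in all. The same 5 genes had no overlap between the 4 control and 5 *Wnk1d/d* values, which held for 10.6% of tested genes in that direction, 9.27% in the other and 19.9% in all. When mean FPKM also had to differ by 1.5-fold or more, 2 axis genes were called lower, *Ptch1* and *Il13ra2*, against 5.18% of all tested genes (5.09% higher, 10.3% in all). The remaining 4 genes (*Ihh*, *Smo*, *Gli2* and *Gata2*) did not pass. The median log2 fold change of the 9 genes was −0.35, and that of all tested genes was 0.00.

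**Figure D1:**
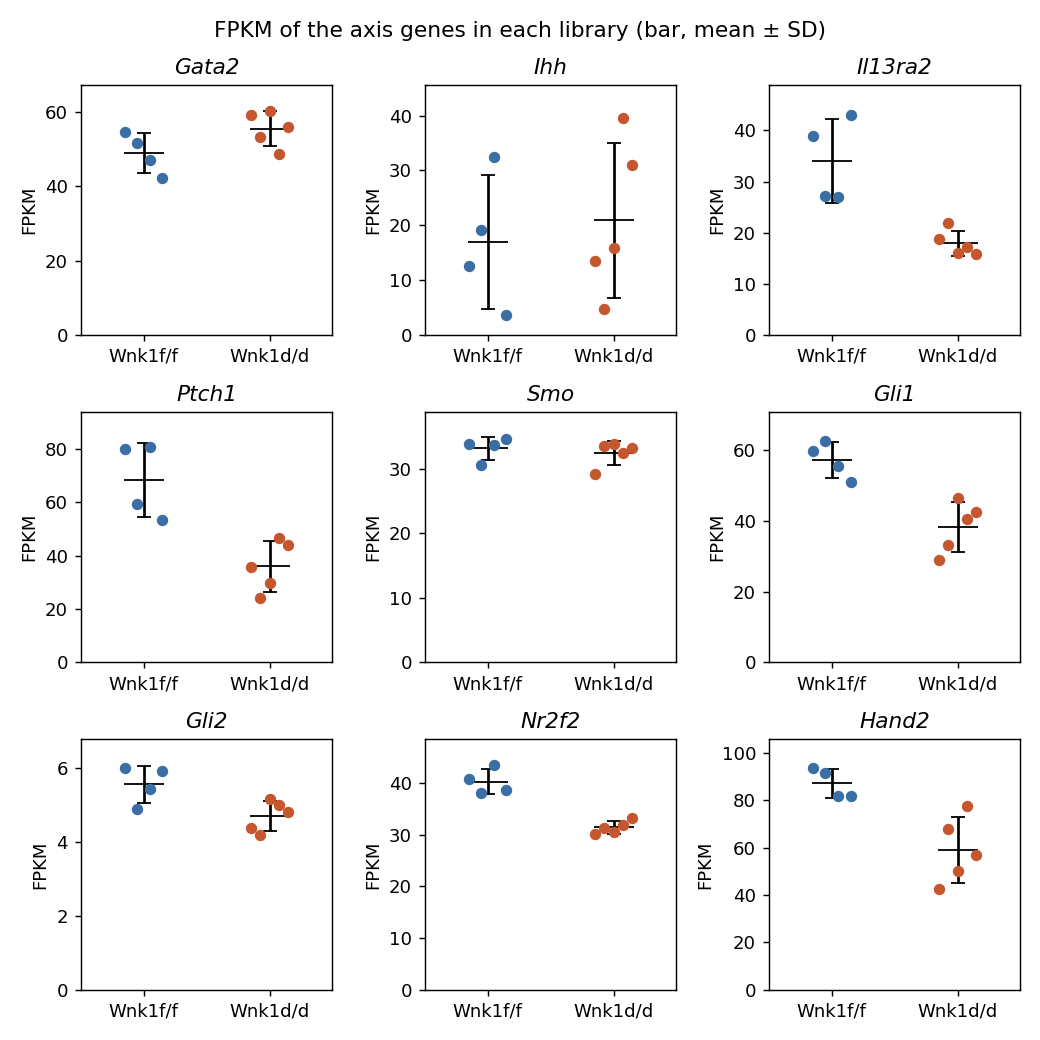
FPKM of the 9 axis genes in each library, with 1 panel per gene, genotype on the horizontal axis and a linear vertical axis from 0. Points are libraries (4 *Wnk1f/f*, blue, and 5 *Wnk1d/d*, orange) and bars give the mean ± SD. In the panels of *Ptch1*, *Gli1*, *Nr2f2*, *Hand2* and *Il13ra2* every orange point lies below every blue point, while in the *Ihh* panel both genotypes spread from under 5 to over 30 FPKM.

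The DNA just upstream of 3 axis genes is shown because these differ in base composition and in the motif they hold: *Ptch1* and *Il13ra2* are the 2 genes past both thresholds, and *Hand2* is the last stromal factor of the axis. Each sequence covers 250 bases before a RefSeq transcription start in GRCm38.p6, read 5′ to 3′ on the strand of the gene. The *Ptch1* window is chr13:63565736-63565985 on the minus strand, before a start that lies within the longer gene model. The *Hand2* window is chr8:57320733-57320982 on the plus strand, part of which is also exon of the opposite-strand gene *Hand2os1*. The *Il13ra2* window is chrX:147429193-147429442 on the minus strand. Capitals mark the GATA motif AGATAA, which appears as TTATCT when it stands on the other strand.
Ptch1: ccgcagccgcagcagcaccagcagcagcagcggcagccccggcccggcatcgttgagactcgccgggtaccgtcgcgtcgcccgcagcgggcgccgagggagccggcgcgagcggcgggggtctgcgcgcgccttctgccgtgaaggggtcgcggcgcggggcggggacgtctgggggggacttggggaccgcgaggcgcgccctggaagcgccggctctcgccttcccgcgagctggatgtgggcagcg
Hand2: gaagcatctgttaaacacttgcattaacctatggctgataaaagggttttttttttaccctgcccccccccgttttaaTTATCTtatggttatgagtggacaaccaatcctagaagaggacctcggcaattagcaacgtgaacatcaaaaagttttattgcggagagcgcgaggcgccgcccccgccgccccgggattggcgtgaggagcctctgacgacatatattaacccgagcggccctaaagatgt
Il13ra2: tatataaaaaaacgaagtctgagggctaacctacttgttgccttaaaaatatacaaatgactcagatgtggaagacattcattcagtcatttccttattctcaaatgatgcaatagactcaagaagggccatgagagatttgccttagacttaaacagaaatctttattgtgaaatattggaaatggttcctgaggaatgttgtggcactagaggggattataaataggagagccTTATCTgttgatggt
GC content was 78.4% for *Ptch1*, 49.2% for *Hand2* and 36.0% for *Il13ra2*, against a median of 52.4% over 32851 RefSeq windows. Of the 9 axis genes, 8 had such a window, *Gli1* being the exception. On both strands of those windows AGATAA occurred in *Hand2* and *Il13ra2*, and it occurred in 9.99% of all windows. The GLI motif GACCACCCA (0.225% of all windows) and the paired progesterone receptor half-sites ACANNNTGT (5.84%) occurred in 0 of the 8 genes. A match of letters is not evidence of binding.

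At the progesterone end of the axis, neither the receptor nor its partner GATA2 passed the test. *Pgr*, the receptor for progesterone, was 16.6 ± 4.01 FPKM in *Wnk1f/f* (SD, n = 4) and 17.8 ± 3.06 in *Wnk1d/d* (SD, n = 5), with a log2 fold change of 0.11 (SE 0.16, limma adjusted p = 0.6559). *Gata2* (chr6, 88193891 to 88207032 in mm10, plus strand) encodes a zinc finger factor that acts with the progesterone receptor upstream of *Ihh*. It read 54.7, 51.5, 47.0 and 42.3 FPKM in *Wnk1f/f* and 59.2, 53.3, 60.2, 48.6 and 55.8 FPKM in *Wnk1d/d*. The ranges overlapped and the log2 fold change was 0.18 (SE 0.09, limma adjusted p = 0.1737). Among the other GATA genes, *Gata6* rose from 6.45 ± 1.59 to 10.4 ± 1.1 FPKM (log2 fold change 0.64, SE 0.14, limma adjusted p = 0.01468) and *Gata5* rose from 1.05 ± 0.557 to 2.07 ± 0.395 FPKM (0.61, SE 0.17, adjusted p = 0.03563). In all, 2 of the 3 other GATA genes tested passed, both higher, with a median log2 fold change of 0.61. The share called higher over all tested genes was 11.1%. *Gata5* kept its call only without *Wnk1f/f* replicate 1 or *Wnk1d/d* replicate 2, and its adjusted p was 0.06196 to 0.09462 without any of the other 7 libraries.

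*Ihh*, the ligand (chr1, 74945315 to 74951672, minus strand), varied more within each genotype than between them. It was 12.6, 19.2, 32.5 and 3.68 FPKM in the *Wnk1f/f* libraries and 13.6, 4.72, 15.8, 39.6 and 31.0 FPKM in the *Wnk1d/d* libraries. The highest value was 8.83 times the lowest among controls and 8.40 times the lowest among *Wnk1d/d*, and the ranges overlapped almost entirely. The log2 fold change was 0.31 (SE 0.66, 95% interval −1.17 to 1.79, limma adjusted p = 0.757), an interval wide enough to hold a difference in either direction. Without *Wnk1f/f* replicate 4, which had the lowest *Ihh* and the liver transcripts, the log2 fold change was −0.23. Relative to the mean of 7 epithelial markers (keratins, *Epcam*, *Cdh1* and claudins) in the same library, *Ihh* differed by 0.09 on the log2 scale (exact permutation p = 0.9444). Of those markers *Cldn7* alone passed, higher, and their summed FPKM was 961.4 to 1539 in *Wnk1f/f* and 1118 to 1610 in *Wnk1d/d*.

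Other hedgehog ligands were scarce. *Shh* was at most 0.03 FPKM in any library. *Dhh* was 1.59 ± 0.174 FPKM in *Wnk1f/f* and 1.19 ± 0.411 in *Wnk1d/d* (log2 fold change −0.26, SE 0.15, limma adjusted p = 0.2282).

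*Ptch1*, the receptor for the ligand, had the most negative fold change of the 25 hedgehog genes examined that passed the expression filter. It (chr13, 63508328 to 63573598, minus strand) was 80.1, 59.5, 80.6 and 53.6 FPKM in *Wnk1f/f* and 35.7, 24.2, 29.8, 46.8 and 44.0 FPKM in *Wnk1d/d*. Every *Wnk1d/d* value lay below every control value. The mean fell from 68.5 ± 14.0 to 36.1 ± 9.47 FPKM, a ratio of 0.527, with a log2 fold change of −0.92 (SE 0.20, 95% interval −1.38 to −0.46, limma adjusted p = 0.01487; exact permutation p = 0.0079, the smallest that 4 against 5 libraries can give). *Smo*, the transducer held in check by PTCH1 (chr6, 29735503 to 29761365, plus strand), read 33.8, 30.5, 33.7 and 34.5 FPKM in *Wnk1f/f* and 29.2, 33.5, 33.8, 32.4 and 33.2 FPKM in *Wnk1d/d*. Its log2 fold change was −0.03 with a 95% interval of −0.18 to 0.11 (limma adjusted p = 0.7402). *Gas1*, a co-receptor at the cell surface, went the other way, from 102 ± 29.9 to 171 ± 26.7 FPKM (log2 fold change 0.78, SE 0.19, limma adjusted p = 0.02058), with overlapping ranges. Its call was lost when *Wnk1f/f* replicate 2 (adjusted p = 0.05189), *Wnk1f/f* replicate 4 (0.05004) or *Wnk1d/d* replicate 3 (0.05089) was left out. The decoy *Hhip* was at most 0.26 FPKM in every library.

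*Gli1*, the GLI factor whose transcription follows hedgehog signal (chr10, 127329882 to 127341974, minus strand), was 59.7, 62.5, 55.4 and 51.0 FPKM in *Wnk1f/f* and 29.0, 33.1, 46.3, 40.4 and 42.4 FPKM in *Wnk1d/d*. The ranges did not meet. The mean fell from 57.2 ± 5.02 to 38.2 ± 7.07 FPKM, a ratio of 0.669 that just missed the 1.5-fold limit, with a log2 fold change of −0.58 (SE 0.13, 95% interval −0.88 to −0.28, limma adjusted p = 0.01652). Exons of *Arhgap9* overlap it on the opposite strand (9.07 to 22.7 FPKM in controls, 8.41 to 13.0 in *Wnk1d/d*). Whether reads were counted by strand is not given in the sources used here, so reads of the 2 genes cannot be told apart. *Gli2*, the main activator (chr1, 118834132 to 119053619, minus strand), read 5.99, 4.89, 5.41 and 5.90 FPKM in *Wnk1f/f* and 4.38, 4.17, 5.14, 4.99 and 4.80 FPKM in *Wnk1d/d*. Its ranges overlapped and its log2 fold change was −0.20 (SE 0.08, limma adjusted p = 0.1064). *Gli3*, largely a repressor, was 3.43 ± 0.539 and 4.29 ± 0.268 FPKM (log2 fold change 0.26, SE 0.09, limma adjusted p = 0.06907, and 0.03672 without *Wnk1f/f* replicate 1).

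Of 25 further hedgehog pathway genes, 20 were tested, of which 7 were lower, 1 was higher and 12 did not pass, with a median log2 fold change of −0.21. By the same rule 11% of all tested genes were lower and 11.1% were higher. The lower genes were *Hhat*, the acyltransferase that matures the ligand, the ciliary proteins *Evc*, *Evc2*, *Kif7* and *Arl13b*, the GLI inhibitor *Sufu* and the kinase *Stk36*, named here because they passed. These 7 changed less than 1.5-fold. *Evc* fell most of them, from 15.6 ± 1.2 to 10.9 ± 1.08 FPKM (log2 fold change −0.48, SE 0.08, limma adjusted p = 0.006507). *Sufu* fell from 17.9 ± 0.821 to 14.7 ± 0.690 FPKM (−0.27, SE 0.06, adjusted p = 0.01434). Calls of 3 genes depended on single libraries. *Kif7* lost its call without *Wnk1f/f* replicate 1, 2 or 4 or *Wnk1d/d* replicate 3 or 5 (adjusted p 0.0596 to 0.08043), and *Arl13b* without *Wnk1f/f* replicate 1, 3 or 4 or *Wnk1d/d* replicate 3, 4 or 5 (0.05998 to 0.07937). *Stk36* kept its call only without *Wnk1d/d* replicate 2 or 4 (otherwise 0.0634 to 0.07898).

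**Figure D2:**
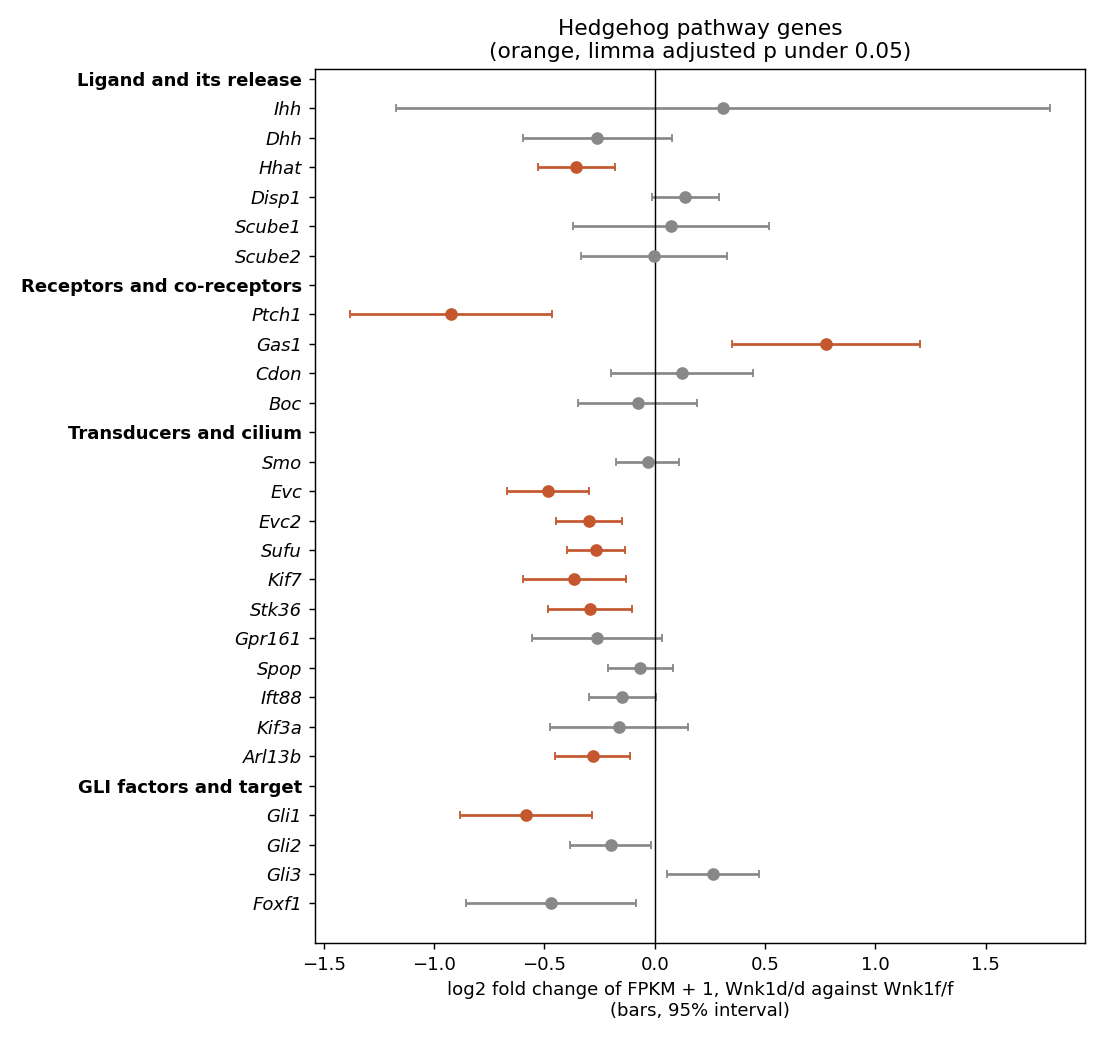
Log2 fold change of FPKM + 1 between *Wnk1d/d* and *Wnk1f/f* (horizontal axis) for the 5 hedgehog axis genes and 20 other tested pathway genes, ordered by role. Points are limma estimates with 95% intervals, orange where the adjusted p is under 0.05, and *Ptch1* lies farthest to the left while *Gas1* is the orange point on the right.

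RNA of the hedgehog targets *Ptch1* and *Gli1* was also set beside *Ihh* RNA in each library. The secreted ligand itself was not measured. *Wnk1d/d* replicates 4 and 5 had 39.6 and 31.0 FPKM of *Ihh* and 46.8 and 44.0 FPKM of *Ptch1*. *Wnk1f/f* replicate 4 had 3.68 FPKM of *Ihh* and 53.6 FPKM of *Ptch1*, above every *Wnk1d/d* library. In both genotypes the library with the lowest *Ihh* also had the lowest *Ptch1*, and the library with the highest *Ihh* had the highest *Ptch1*. *Gli1* followed this order only at the low end of *Wnk1f/f*. The library with the highest *Ihh* had 55.4 FPKM of *Gli1* in *Wnk1f/f* (highest 62.5) and 40.4 in *Wnk1d/d* (highest 46.3). In *Wnk1d/d* the lowest *Gli1* was 29.0 FPKM in replicate 1, whereas replicate 2 had the lowest *Ihh*. No correlation is given for 4 and 5 libraries, and the relation was not tested. The ratio of *Ptch1* to *Ihh* ran from 2.48 to 14.6 in *Wnk1f/f* and from 1.18 to 5.12 in *Wnk1d/d*.

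**Figure D3:**
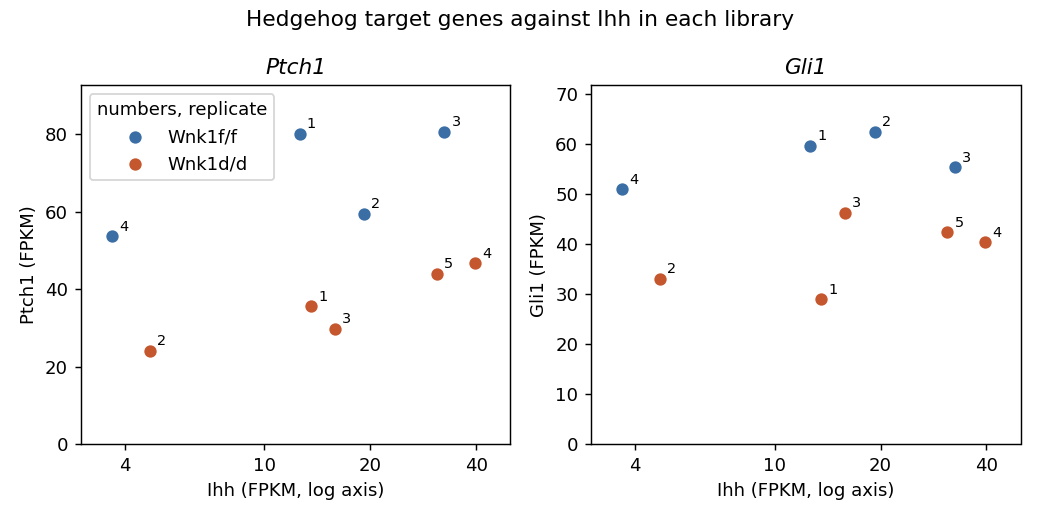
FPKM of *Ptch1* and *Gli1* (vertical axes, linear from 0) against FPKM of *Ihh* (horizontal axis, log scale) in the 9 libraries, blue for *Wnk1f/f* and orange for *Wnk1d/d*, with replicate numbers. Both genotypes cover a similar span of *Ihh*, and all orange points lie below all blue points in each panel.

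The steps of the axis were compared within a library as log2 ratios of FPKM + 1. Such ratios depend little on library scaling, except where a gene is low. *Ihh* over *Ptch1* was −2.25 ± 1.03 in *Wnk1f/f* (SD, n = 4) and −1.01 ± 0.752 in *Wnk1d/d* (SD, n = 5), a difference of 1.23 (exact permutation p = 0.07937, two-sided, adjusted p = 0.246 over 5 steps). *Ihh* over *Gli1* differed by 0.89, *Ptch1* over *Gli1* by −0.34, *Gli1* over *Nr2f2* by −0.24 and *Nr2f2* over *Hand2* by 0.24. None of these 5 differences passed, each with an adjusted exact permutation p of 0.246. The ratio of *Ptch1* to *Smo*, looked at after the values were seen and not tested, was 1.55 to 2.39 in *Wnk1f/f* and 0.722 to 1.44 in *Wnk1d/d*, without overlap.

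RNA of *Nr2f2* and *Hand2*, the stromal factors at the end of the axis, was lower in whole uterus. Levels within the stroma itself were not measured. *Nr2f2* (chr7, 70351944 to 70366735, minus strand) was 40.9, 38.0, 43.4 and 38.7 FPKM in *Wnk1f/f* and 30.1, 31.4, 30.5, 31.9 and 33.3 FPKM in *Wnk1d/d*. Libraries of a genotype lay close together and the ranges were separate. The mean fell from 40.2 ± 2.43 to 31.4 ± 1.27 FPKM, a modest ratio of 0.781 (log2 fold change −0.35, SE 0.06, 95% interval −0.48 to −0.21, limma adjusted p = 0.00661). The call was kept in all 9 fits that left out 1 library. An opposite-strand neighbor that overlaps *Nr2f2*, *B130024G19Rik*, read 16.4 to 21.0 FPKM in controls and 6.10 to 10.96 FPKM in *Wnk1d/d*, and reads of the shared stretch cannot be told apart.

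*Hand2* (chr8, 57320983 to 57324633, plus strand) had the highest level of the 9 genes in both genotypes. It was 93.6, 91.4, 82.0 and 81.9 FPKM in *Wnk1f/f* and 42.7, 67.8, 50.01, 77.7 and 57.0 FPKM in *Wnk1d/d*. *Wnk1d/d* replicate 4 came close to the lowest control, but the ranges did not meet. The log2 fold change was −0.58 (SE 0.16, 95% interval −0.94 to −0.23, limma adjusted p = 0.02909) and the ratio of means was 0.677. This call was not stable: the adjusted p rose to between 0.05746 and 0.07032 when *Wnk1f/f* replicate 1, 2 or 4 or *Wnk1d/d* replicate 3 or 5 was left out. *Hand2os1* overlaps it on the opposite strand, with the same limit.

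A list of 9 genes was examined as possible stromal targets of COUP-TFII, and these data do not show which of them it controls. Of the 9, 3 were lower, 0 were higher (2 at an unadjusted p under 0.05 in limma) and 6 did not pass, with a median log2 fold change of 0.10. Among all tested genes 11% were lower and 11.1% higher at the adjusted threshold. *Osr2*, a zinc finger factor, fell from 226 ± 24.3 to 139 ± 16.8 FPKM (−0.70, SE 0.11, limma adjusted p = 0.004573). *Hoxd10* fell from 104 ± 16.0 to 69.8 ± 10.7 FPKM (−0.57, SE 0.13, adjusted p = 0.01776). *Nr2f1*, the paralog of *Nr2f2*, fell from 1.42 ± 0.240 to 0.898 ± 0.166 FPKM (−0.35, SE 0.11, adjusted p = 0.04933), and kept its call only without *Wnk1d/d* replicate 2 (otherwise 0.06374 to 0.1097). It passed the expression filter only through its *Wnk1f/f* mean. The decidual signals *Bmp2* (2.08 ± 0.351 and 2.35 ± 0.390 FPKM, adjusted p = 0.4496) and *Wnt4* (2.57 ± 0.231 and 2.96 ± 0.334, 0.2481) did not pass, nor did the estrogen receptor *Esr1* (41.3 ± 6.56 and 50.2 ± 6.42, 0.1285).

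Genes of fibroblast growth factor signaling, some of which HAND2 is known to restrain in stroma, moved both ways. Of 6 growth factors listed, 5 were tested, 2 were higher, 1 was lower and 2 did not pass (median log2 fold change 0.37). Among all tested genes 11.1% were higher and 11% lower by that rule. An unadjusted limma p under 0.05 was found for 4 of the 5 growth factors. *Fgf9* did not pass but had no overlap, at 2.91 ± 0.934 FPKM in *Wnk1f/f* and 1.66 ± 0.56 in *Wnk1d/d* (−0.55, SE 0.19, limma adjusted p = 0.06388). *Fgf7* overlapped (0.37, SE 0.17, limma adjusted p = 0.1339). Of 4 receptors 0 passed in limma, with 0 at an unadjusted p under 0.05, and *Hand1* was listed at 0 in every library. *Fgf1* rose from 1.43 ± 0.772 to 3.69 ± 1.43 FPKM (0.95, SE 0.25, limma adjusted p = 0.0284) and *Fgf2* rose from 0.680 ± 0.270 to 1.60 ± 0.295 FPKM (0.64, SE 0.14, adjusted p = 0.01507). *Fgf10* fell from 2.14 ± 0.157 to 0.892 ± 0.260 FPKM (−0.74, SE 0.12, adjusted p = 0.005496). These are low levels, and the *Fgf1* call was lost without *Wnk1f/f* replicate 2, 3 or 4 or *Wnk1d/d* replicate 1 or 5 (adjusted p 0.05088 to 0.07829). *Fgf2* passed the expression filter only through its *Wnk1d/d* mean and *Fgf10* only through its *Wnk1f/f* mean. For both genes, entry to the test was thus not independent of the difference.

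*Il13ra2*, which encodes a receptor that binds interleukin 13 without passing on its main signal (chrX, 147383476 to 147429192, minus strand), was 38.9, 27.2, 27.1 and 43.1 FPKM in *Wnk1f/f* and 18.8, 21.8, 16.1, 17.3 and 15.9 FPKM in *Wnk1d/d*. Controls split into a higher and a lower pair, and all 5 *Wnk1d/d* values lay under the lower pair. The mean fell from 34.1 ± 8.17 to 18.0 ± 2.43 FPKM, a ratio of 0.528 (log2 fold change −0.86, SE 0.15, 95% interval −1.21 to −0.52, limma adjusted p = 0.00744). Other genes of the interleukin 4 and 13 receptors moved unequally. *Il13ra1* was 10.8 ± 2.4 FPKM in *Wnk1f/f* and 14.1 ± 1.7 in *Wnk1d/d* and did not pass (log2 fold change 0.37, SE 0.13, limma adjusted p = 0.06826). *Il4ra*, the signaling chain shared by interleukins 4 and 13, was 19.5, 16.8, 21.2 and 20.1 FPKM in *Wnk1f/f* and 46.0, 35.4, 48.6, 39.2 and 51.8 FPKM in *Wnk1d/d*. That is a rise with no overlap (log2 fold change 1.14, SE 0.12, limma adjusted p = 0.00144). The ratio of *Il4ra* to *Il13ra2* was 0.467 to 0.783 in controls and 1.62 to 3.26 in *Wnk1d/d*. *Il2rg*, the common gamma chain, fell from 20.03 ± 4.40 to 12.3 ± 1.63 FPKM (−0.65, SE 0.14, adjusted p = 0.01358). Of 6 genes of this group 4 were tested and the other 2, *Il13* and *Il4*, were at most 0.05 and 0.31 FPKM.

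Other progesterone-regulated genes moved both ways. Of 16 listed symbols, 14 genes were tested, 1 was higher, 5 were lower and 8 did not pass (median log2 fold change 0.08). Among all tested genes 11.1% were higher and 11% lower by that rule. *Fst*, an activin antagonist, fell from 23.3 ± 3.37 to 13.3 ± 3.802 FPKM (−0.80, SE 0.19, limma adjusted p = 0.01994) and *Klf15*, a Krüppel-like factor, fell from 28.1 ± 4.41 to 16.6 ± 3.24 FPKM (−0.73, SE 0.15, adjusted p = 0.01226). *Calca*, the calcitonin gene, fell from 3.08 ± 0.673 to 1.49 ± 0.594 FPKM (−0.73, SE 0.19, adjusted p = 0.02612), a call lost without *Wnk1f/f* replicate 1, 2 or 3 or *Wnk1d/d* replicate 4 (0.05525 to 0.064). *Hoxa10* and *Hoxa11*, homeobox genes of uterine stroma of which the latter is also among the stroma markers used here, fell with log2 fold changes of −0.55 (SE 0.09, adjusted p = 0.006228) and −0.59 (SE 0.10, adjusted p = 0.006507). *Hsd11b2*, which inactivates glucocorticoid, rose from 243 ± 23.3 to 339 ± 61.5 FPKM (0.47, SE 0.15, adjusted p = 0.04763) and kept its call only without *Wnk1d/d* replicate 1 (otherwise 0.05753 to 0.1177). *Irg1*, an epithelial gene induced by progesterone, was 40.9 ± 35.2 and 114 ± 49.1 FPKM and did not pass (1.86, SE 0.66, adjusted p = 0.071), though it did without *Wnk1f/f* replicate 3 (0.0363) or *Wnk1d/d* replicate 2 (0.04746).

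Levels per length ordered the axis genes in *Wnk1f/f* as *Hand2*, *Ptch1*, *Gli1*, *Gata2*, *Nr2f2*, *Il13ra2*, *Smo*, *Ihh* and *Gli2*. Only *Hand2* and *Ptch1* among neighbors in that order had separate ranges. In *Wnk1d/d* the order was *Hand2*, *Gata2*, *Gli1*, *Ptch1*, *Smo*, *Nr2f2*, *Ihh*, *Il13ra2* and *Gli2*. There *Gata2* and *Gli1* had separate ranges and so did *Il13ra2* and *Gli2*, while the others overlapped.

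Because marker RNA differed between the genotypes, the axis genes were also set against markers of a compartment in the same library (11 tests, exact two-sided permutation, p adjusted over the 11). Relative to the mean of 7 stroma markers, the 6 stromal axis genes were lower: *Ptch1* by −1.21 on the log2 scale, *Gli1* by −0.87, *Hand2* by −0.87, *Nr2f2* by −0.64, *Gli2* by −0.49 and *Smo* by −0.32, each with an adjusted exact permutation p of 0.02182. Relative to the median of the same markers none of the 6 passed (adjusted exact permutation p = 0.2619 to 0.6547). *Ptch1* then differed by −0.66, *Gli1* by −0.32, *Hand2* by −0.32 and *Nr2f2* by −0.08, while *Smo* (0.24) and *Gli2* (0.07) turned direction. The stroma markers themselves parted. *Lum*, *Col6a3* and *Col1a1* were higher in *Wnk1d/d*, *Pdgfra*, *Vim* and *Hoxa11* were lower and *Dcn* did not pass, while their summed FPKM overlapped (1951 to 2297 and 2054 to 2526).

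*Il13ra2* was lower relative to the epithelial markers, by −1.09 (adjusted exact permutation p = 0.02182). *Gata2* differed by −0.04 from the epithelial markers and was higher by 0.98 relative to 7 blood endothelium markers (adjusted p = 0.02182, exact permutation). Of those 7 markers 6 were themselves lower in *Wnk1d/d* (median log2 fold change of the 7, −0.72), while *Gata2* alone changed by 0.18 and did not pass. *Nr2f2*, which vein endothelium also expresses, differed by 0.45 relative to those markers (adjusted exact permutation p = 0.0582). Against the median of the markers the calls of *Il13ra2* (−1.30, adjusted exact permutation p = 0.08731) and *Gata2* on endothelium (0.81, 0.131) were lost. Gland markers parted too: *Spink3*, *Prss28* and *Prss29* were lower, *Aldh1a1* was higher and *Foxa2* and *Cxcl15* did not pass, with sums of 6593 to 10400 FPKM in controls and 827.5 to 2730 in *Wnk1d/d*. Of 6 liver genes 0 passed in limma (2 at an unadjusted p under 0.05, 1 in each direction), with sums of 28.4 to 157.4 and 31.9 to 48.1.

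**Figure D4:**
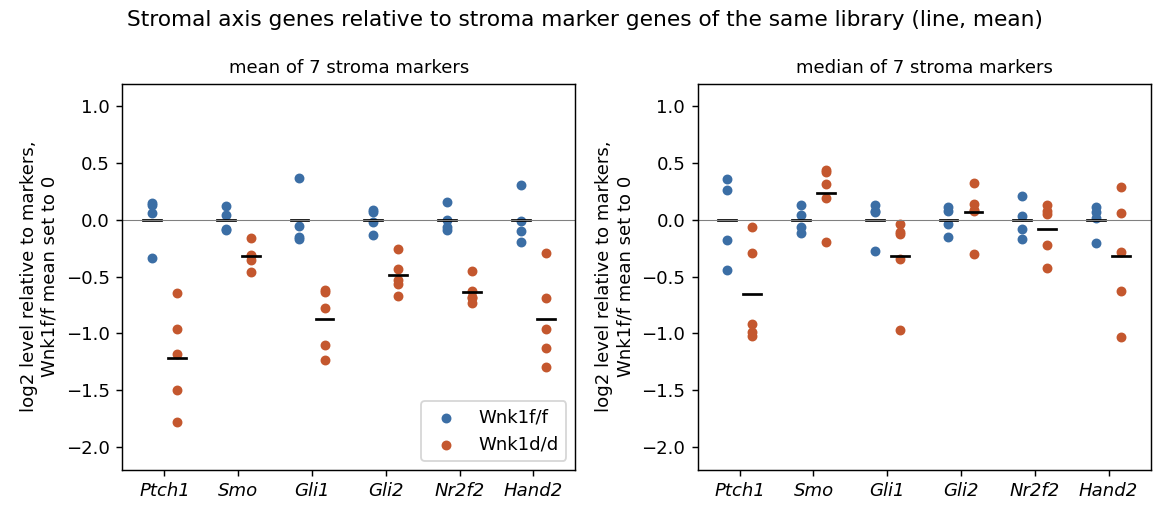
Log2 level of the 6 stromal axis genes relative to stroma markers of the same library (vertical axis, *Wnk1f/f* mean set to 0), with their mean (left) or their median (right) as reference. Points are libraries (blue *Wnk1f/f*, orange *Wnk1d/d*) and lines are means; every orange point lies below every blue point of its gene on the left, and the genotypes overlap on the right.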

How the data were processed

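RNA-seq of whole uterus from 4 *Wnk1f/f* and 5 *Wnk1d/d* mice was analysed from the deposited table of FPKM per gene. Per the labels, the authors aligned reads with TopHat2 2.0.4 to mm10 and made FPKM with Cufflinks 2.0.2; the annotation is not given in the sources used here. FPKM carries no counts, so depth is unknown. From the steps of low values in 49 entries (0.1 to 20 FPKM, a range chosen after trying several), the worth of 1 fragment differed at most 1.36-fold between libraries. Genes whose mean passed 1 FPKM in either genotype entered a test on log2(FPKM + 1) with limma 3.58.1 in R 4.3.3 (eBayes with trend, Benjamini-Hochberg over 14728 genes), a scale that understates changes of low genes. The test was checked on simulated data. Single ratios used exact two-sided permutation of libraries (smallest p 0.0079). Positions are from GENCODE M21. Axis genes and gene lists were chosen with earlier results of these data known. Genes named are the 9, *Wnk1*, 9 picked by role (*Pgr*, *Shh*, *Dhh*, *Hhip*, *Gli3*, *Nr2f1*, *Bmp2*, *Wnt4*, *Esr1*), list genes past both thresholds and the largest change of each list; others were named after their values were seen. Of the genes chosen for the lists and markers, 2 are not reported here and enter no list count. Replicate numbers name separate mice, so no block was used. Same-numbered libraries deviated with correlations of −0.0867, −0.00293, 0.0221 and −0.268. Alternatives are given in the closing section.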

Additional observations from a re-analysis of the deposited data

Results flagged for a closer look

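*Sufu*, the GLI inhibitor, was 13.55 FPKM in *Wnk1d/d* replicate 1, apart from the 14.8 to 15.3 FPKM of the other 4 *Wnk1d/d* libraries by Dixon's test at 95%. It was the only such value among 82 groups of 41 named genes, and chance gives about 1 in 20.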

How the results depend on the processing

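Other pseudocounts, scalings, variance models and leaving out 1 library kept the direction of *Ptch1*, *Gli1*, *Nr2f2*, *Hand2* and *Il13ra2*. With the replicate number as a block, which leaves *Wnk1d/d* replicate 5 without a partner, 0 axis genes passed (main 5), 0 passed both thresholds (main 2), and 1 other pathway gene was lower (main 17) and 2 were higher (main 7); over all genes 259 passed against 3249, and 257 against 1513 with the ratio. Adjusted p under the block was 0.06342 to 0.1183 for the 5. The numbers pair no mice, so this is no measure of a weaker effect. Requiring a 2-fold ratio left 0 axis genes. A filter at 5 FPKM, which tests fewer genes, left 4 other pathway genes higher. Leaving out 1 library gave 4 to 5 axis genes lower and 2 to 4 past both thresholds, with 4 without *Wnk1f/f* replicate 3 or *Wnk1d/d* replicate 4, and 12 to 18 other genes lower and 3 to 8 higher (3 without *Wnk1f/f* replicate 2 or 4, 4 without *Wnk1d/d* replicate 3 or 5). Over all genes 1019 to 1870 passed both thresholds. Directions turned for *Ihh* (−0.2303 without *Wnk1f/f* replicate 4, range to 0.7212), *Smo* (0.004191 without *Wnk1d/d* replicate 1, range from −0.06976) and *Pgr* (−0.001714 without *Wnk1f/f* replicate 2, range to 0.2418), none past the threshold.

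Against the median of markers, differences were −0.1229 for *Ihh* and −1.298 for *Il13ra2* (epithelium), −0.6561 for *Ptch1*, 0.2353 for *Smo*, −0.3165 for *Gli1*, 0.06658 for *Gli2*, −0.07837 for *Nr2f2* and −0.3165 for *Hand2* (stroma), and 0.8118 for *Gata2* (blood endothelium), none past the threshold. References made of the stroma markers that rose or of those that fell were tried after seeing the data and dropped, since such a split fixes the direction. Leaving out 1 library moved *Ihh* over epithelium from −0.3739 to 0.5227, *Gata2* over epithelium from −0.1488 to 0.08797 and *Nr2f2* over endothelium from 0.3172 to 0.5601, passing in 1 case. The causes were not tested.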
